A study of Mus musculus with 24 samples.

Results

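Semaphorins, netrins and slits are guidance cues, and plexins, neuropilins, the Dcc and Unc5 proteins and the robos are their receptors. In the mouse, 48 protein-coding genes carry the symbols Sema, Plxn, Nrp1, Nrp2, Ntn1, Ntn3 to Ntn5, Ntng1, Ntng2, Dcc, Unc5a to Unc5d, Slit1 to Slit3 or Robo1 to Robo3. Of these, 47 reached a mean of 1 CPM (counts scaled to library size) over 24 pituitary libraries and are described here, out of 35191 genes in the count table. Ntn5 was left out, with a mean of 0.055 CPM and no count in 18 libraries. The members nearest above that limit were Plxnb3, at 1.19 CPM, and Sema5b, at 1.24 CPM. All 47 also passed the filter on low counts used for testing.

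The libraries are bulk polyA RNA sequencing of mouse pituitary, in 8 groups of 3, with each genotype in males and females. Complete wild type animals carried neither Cre nor floxed Egr1, and Cre control animals carried Cre without floxed Egr1. Egr1cKO control animals carried floxed Egr1 without Cre, and Egr1cKO animals carried both, which makes them conditional knockouts of the zinc-finger transcription factor Egr1. The sources used here do not give the promoter that drives Cre, the ages or the floxed exon. The labels do not state that the libraries are from separate animals, so a p-value reflects the spread among libraries, which may be technical.

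Secreted class 3 semaphorins act through neuropilins paired with class A plexins, except Sema3e, which can bind Plxnd1 directly. Membrane semaphorins bind plexins themselves, for example Sema4d with Plxnb1, Sema4c with Plxnb2 and Sema7a with Plxnc1. Netrins attract growing axons through Dcc and repel them through the Unc5 receptors, and slits repel through the robos. The netrin-G proteins Ntng1 and Ntng2 are held in the membrane by a lipid anchor and bind Lrrc4 family proteins instead of Dcc. Outside the nervous system the same genes act in blood vessel growth, epithelial shape and cell migration. In bulk tissue, fewer cells of a type and less RNA per cell cannot be told apart.

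Promoters were available in the RefSeq table (build GRCm38.p6) for 38 of the 47 members. The set shown here is the 250 bases before the start site of 3 genes whose levels are described below: Sema3a, which passed the test of a changed sex difference and holds no EGR motif in this window, and Slit2 and Sema5a, which passed tests and hold one. The capitals mark the EGR variant motif GCGGGGGCG. All 3 genes lie on the plus strand.
Sema3a, chr5:13396534-13396783: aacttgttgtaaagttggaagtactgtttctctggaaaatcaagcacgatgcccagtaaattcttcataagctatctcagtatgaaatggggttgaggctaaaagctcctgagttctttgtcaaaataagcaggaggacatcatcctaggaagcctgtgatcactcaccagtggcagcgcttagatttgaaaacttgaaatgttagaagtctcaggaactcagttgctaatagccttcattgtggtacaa
Slit2, chr5:47982905-47983154: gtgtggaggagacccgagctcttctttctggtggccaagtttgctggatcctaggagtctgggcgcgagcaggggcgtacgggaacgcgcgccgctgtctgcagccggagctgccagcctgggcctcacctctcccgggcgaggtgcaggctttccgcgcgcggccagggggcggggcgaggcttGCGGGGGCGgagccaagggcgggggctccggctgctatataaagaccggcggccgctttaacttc
Sema5a, chr15:32244563-32244812: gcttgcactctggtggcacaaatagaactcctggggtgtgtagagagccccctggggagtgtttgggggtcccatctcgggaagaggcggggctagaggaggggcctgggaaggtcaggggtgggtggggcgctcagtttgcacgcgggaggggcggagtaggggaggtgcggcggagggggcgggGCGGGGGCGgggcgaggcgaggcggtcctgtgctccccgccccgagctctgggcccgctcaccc

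Counted back from the start site, the motif begins at base -65 in Slit2 and -64 in Sema5a. GC content was 40.8% in the Sema3a window, 69.6% in Slit2 and 72% in Sema5a. The Sema3a window lies inside the gene as GENCODE annotates it (chromosome 5, 13125414 to 13602565), so it precedes a RefSeq start downstream of the GENCODE start. Either EGR motif, GCGTGGGCG or GCGGGGGCG on either strand, was found in 6 of 51 member promoters (11.8%), taken from 250 bases before to 50 after the start, and in 3.47% of 32851 promoters of that length. The 6 genes were Plxna2, with GCGTGGGCG, and Plxnb2, Sema4g, Sema5a, Sema6b and Slit2, with GCGGGGGCG. The estrogen response element, GGTCA and TGACC separated by 3 bases, was in 0 of the member promoters and in 0.07% of all. Both EGR motifs consist almost only of G and C, and the member promoters were not matched to the full set for GC content. Of the genes with a motif, Plxna2, Sema4g and Sema6b passed the test in none of the 10 comparisons described below. A match describes these letters only.

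Plexins made up the largest share of this gene family in the pituitary. Levels per length are given as CPM per kilobase of exon (RPKM), as a mean over the 24 libraries. Summed by role, the plexins reached 90.2 RPKM (9 genes), the membrane semaphorins 53.3 (13 genes), the netrin receptors 29.7 (5 genes) and the secreted semaphorins 20.1 (7 genes). The slits followed with 9.13 RPKM (3 genes), the netrin-G genes with 7.82 (2 genes), the netrins with 5.96 (3 genes), the neuropilins with 3.97 (2 genes) and the robos with 3.88 (3 genes).

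Plxnb1 (33.1 RPKM), Plxnb2 (28.2) and Plxna3 (15.9) led the plexins, and Plxnd1, Plxna1, Plxnc1, Plxna2 and Plxna4 lay between 4.71 and 1.05. The Unc5a level of 25.2 RPKM was the highest of any netrin receptor, ahead of Dcc at 2.85, Unc5c at 0.807, Unc5b at 0.479 and Unc5d at 0.344. Sema3f, a ligand for neuropilin 2, reached 14.9 RPKM, and the other secreted semaphorins (Sema3a to Sema3e and Sema3g) lay between 0.469 and 2.22. Among membrane semaphorins Sema4b (8.62), Sema4c (8.36), Sema4g (7.74) and Sema6b (7.12) were highest, followed by Sema6c, Sema4d, Sema6d, Sema6a, Sema4f, Sema7a, Sema4a and Sema5a, from 4.98 down to 0.916. The remaining ligands and receptors were Ntng2 (7.31) and Ntng1 (0.513), Slit1 (6.51), Slit2 (1.71) and Slit3 (0.912), Ntn4 (2.49), Ntn1 (2.30) and Ntn3 (1.17), Nrp1 (2.41) and Nrp2 (1.56), and Robo1 (1.52), Robo2 (1.34) and Robo3 (1.01). Plxnb3 (0.183 RPKM) and Sema5b (0.175 RPKM) were lowest.

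**Figure D1:**
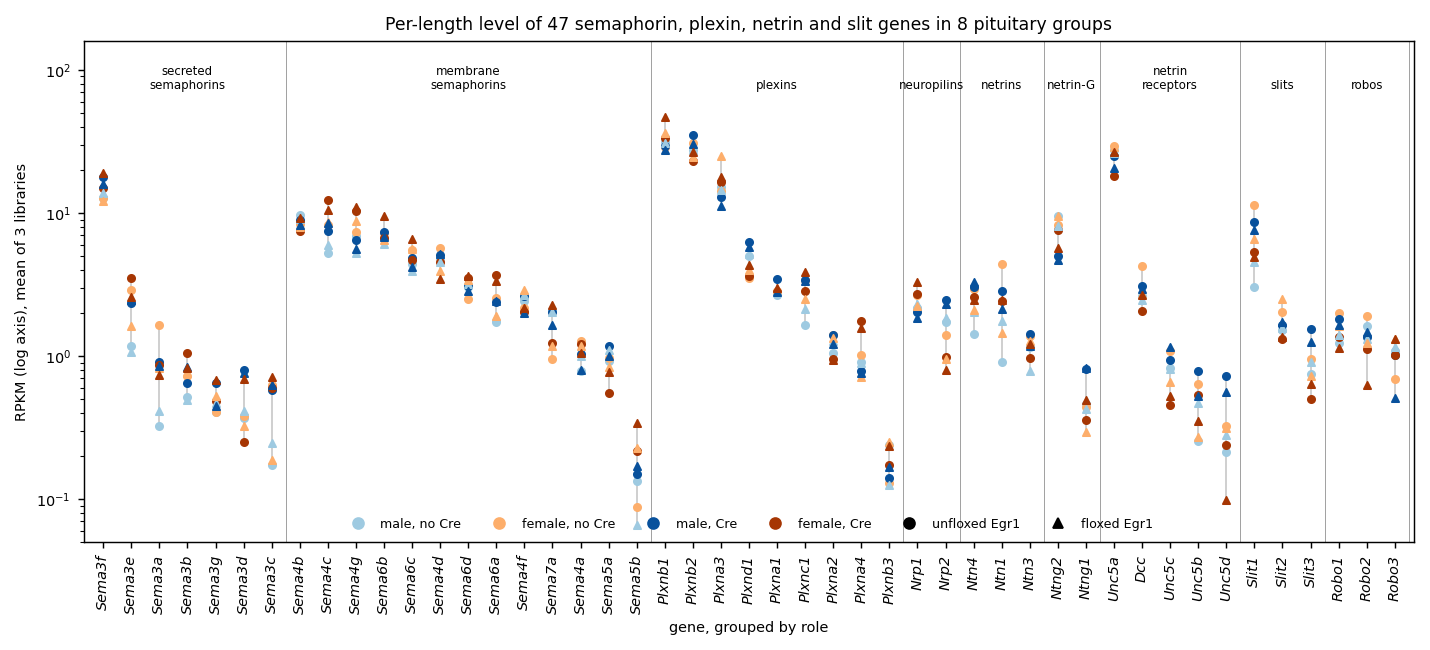
Mean level of each of the 47 genes in the 8 groups, in RPKM on a log axis, grouped by role and ordered by level; colours give sex and Cre, circles unfloxed and triangles floxed Egr1, each point a mean of 3 libraries. Plxnb1, Plxnb2 and Unc5a top the plot and Plxnb3 and Sema5b lie at the bottom, while Sema3a, Sema3c, Ntn1, Slit1 and Unc5d have widely spaced group means.

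The libraries are not stranded, so reads over exons shared with another gene cannot be assigned with certainty. Such overlap covered 13.98% of the exon length of Ntng2 (with 6530402F18Rik, same strand), 10.7% of Plxna1 (with Gm26811), 7.27% of Sema4c (with D430040D24Rik), 2.72% of Ntn3 and 2.68% of Plxnb1, and less in the others. The pituitary's hormone genes were abundant in every library: Gh took 4.87% to 31.8% of counts in a library, Prl 0.371% to 14.5% and Pomc 0.616% to 18.8%. Total counts ranged from 15486069 to 26255343 per library. Egr1 itself measured 7.55 to 486 CPM and did not pass the test in any comparison. Its estimate was higher with Cre, at medians of 33.0 CPM without and 84.5 CPM with Cre. The log2 difference was 1.90 (SE 0.627, edgeR adjusted p = 0.0825), with wide overlap. A whole-gene count does not show whether the floxed exon is lost. The mitochondrial share of counts was 5.52% to 10.4% in females with Cre and 2.08% to 3.79% in males with Cre. In the same groups 18508 to 21848 and 21629 to 26081 genes had a count. Among libraries without Cre, female wild type replicate 1 stood apart, with a mitochondrial share of 10.1% against 2.14% and 2.695% in its group and 18663 genes with a count against 23987 and 25410. Counts of members and partners called in comparisons that include it are given with and without it. Unfloxed and floxed libraries are numbered in separate series in the titles, so the floxed background and that numbering cannot be told apart.

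Cre-carrying pituitaries (Cre control and Egr1cKO) were compared with Cre-free ones (wild type and Egr1cKO control), 12 libraries against 12, as the mean of the 4 differences within sex and Egr1 background. The genes that rose were 3 secreted semaphorins, 2 membrane semaphorins and 1 plexin, and those that fell were a netrin-G gene, a slit receptor and a netrin receptor. A gene is called when its edgeR quasi-likelihood adjusted p (Benjamini-Hochberg over 21927 genes) is under 0.05. With Cre, 9 of the 47 genes were called (19.1%), against 6.89% of all genes tested and 8.58% of those at 1 CPM or more. Among the 9 called, 6 rose (all-gene share 2.8%, 3.74% at 1 CPM or more) and 3 fell (4.08%, 4.84% at 1 CPM or more). The median log2 difference was 0.11 over the members and -0.03 over all genes tested.

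Of the 7 secreted semaphorins, 3 rose with Cre and the other 4 had positive values that were not called. Sema3c, which signals through both neuropilins, was low without Cre: the lowest, median and highest libraries had 0.470, 1.32 and 5.65 CPM. With Cre they had 2.49, 4.75 and 7.26 CPM. The ranges overlap: all 3 female wild type libraries (4.10, 5.65 and 3.67 CPM), a male Egr1cKO control (3.59 CPM) and a female Egr1cKO control (2.60 CPM) lay within the Cre range. The log2 difference was 1.23 (SE 0.307, edgeR adjusted p = 0.0128). In unfloxed females the Sema3c mean was slightly lower with Cre.

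Sema3e, a direct ligand of Plxnd1, measured 3.85, 13.5 and 38.7 CPM (lowest, median, highest) without Cre and 17.3, 23.2 and 38.9 CPM with Cre. Every library with Cre was above the Cre-free median, and the ranges overlap above it. The log2 difference was 0.80 (SE 0.193, edgeR adjusted p = 0.0113). Sema3f, the most abundant secreted member, went from 52.0, 67.7 and 82.6 CPM without Cre to 62.4, 85.2 and 120 CPM with Cre. The groups overlap, and the log2 difference was 0.39 (SE 0.102, edgeR adjusted p = 0.017).

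Among the 13 membrane semaphorins, 2 were called, both higher with Cre. Sema6a, a transmembrane ligand for class A plexins, had 12.3, 17.4 and 24.8 CPM (lowest, median, highest) without Cre and 16.1, 26.4 and 42.1 CPM with Cre. Its log2 difference was 0.55 (SE 0.117, edgeR adjusted p = 0.00361), the smallest p of any member, although the groups overlap. Sema4c, a ligand of Plxnb2, had 19.8, 30.0 and 55.2 CPM without Cre and 29.6, 40.9 and 66.9 CPM with Cre. The ranges overlap widely, and the log2 difference was 0.46 (SE 0.126, edgeR adjusted p = 0.0241).

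Among receptors, 1 of 9 plexins rose, and 1 of 5 netrin receptors and 1 of 3 robos fell. Plxnc1, the receptor for Sema7a, had 11.1, 18.4 and 40.0 CPM without Cre and 19.5, 29.6 and 37.9 CPM with Cre, a log2 difference of 0.51 (SE 0.149, edgeR adjusted p = 0.037). Robo2, a slit receptor, had 15.5, 26.0 and 36.8 CPM without Cre and 6.98, 20.05 and 29.0 CPM with Cre, a log2 difference of -0.46 (SE 0.119, edgeR adjusted p = 0.0181). Unc5a fell by 0.32 on the log2 scale (SE 0.0958, edgeR adjusted p = 0.0408), from a median of 115 to 89.8 CPM. All 3 genes have overlapping ranges.

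Ntng2, the lipid-anchored netrin, had 23.96, 35.7 and 46.3 CPM without Cre and 13.4, 22.0 and 36.5 CPM with Cre. It was lower with Cre, with overlap, by a log2 difference of -0.65 (SE 0.143, edgeR adjusted p = 0.00465). No neuropilin, netrin or slit was called. When each library was left out in turn, Ntng2, Robo2, Sema3c, Sema3e, Sema3f and Sema6a stayed called in 24 of 24 fits, Sema4c in 20, Plxnc1 in 11 and Unc5a in 8. The Sema4c call was lost without male Egr1cKO control replicate 1, female Egr1cKO control replicate 2, female Egr1cKO replicate 3 or female Cre control replicate 3 (edgeR adjusted p = 0.0511 to 0.0531), and Plxnc1 and Unc5a reached edgeR adjusted p values of 0.077 and 0.0946. Without female wild type replicate 1 the 9 genes and Slit2 (log2 difference -0.34, edgeR adjusted p = 0.0432) were called, against 8.12% of all genes.

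**Figure D2:**
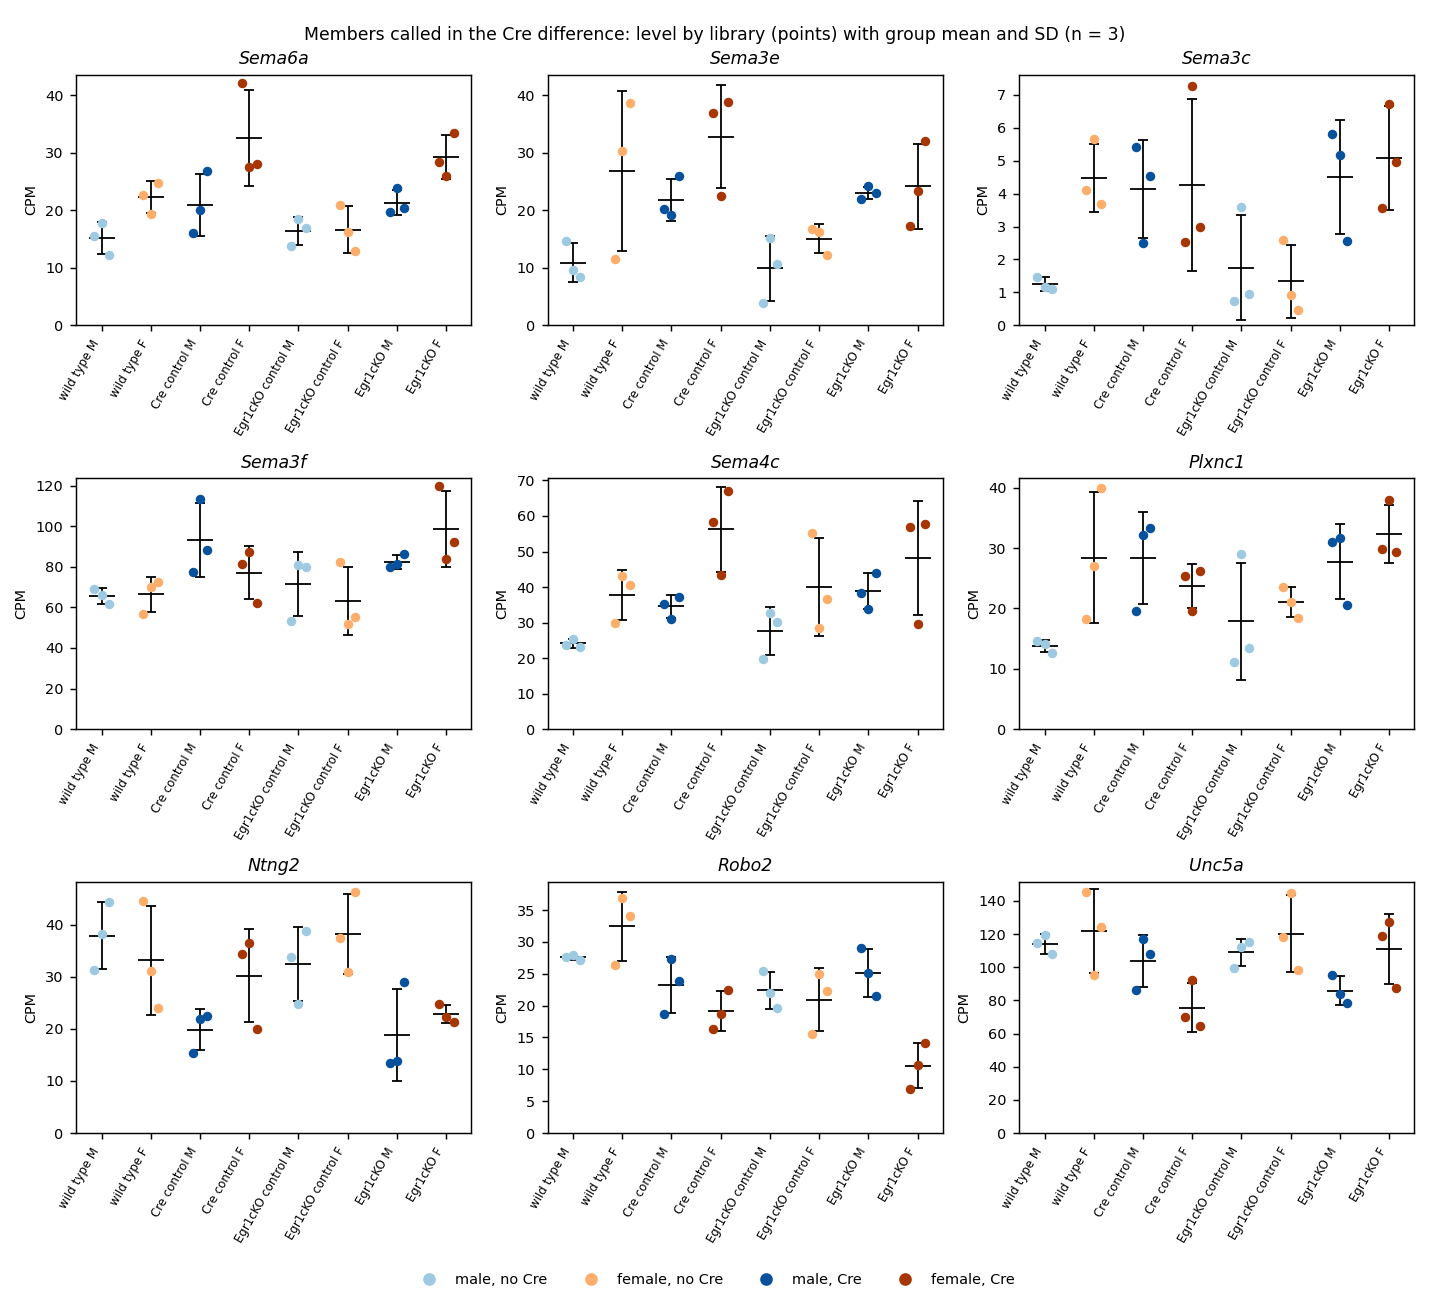
Level in CPM of the 9 genes called in the Cre difference, by group, with a point per library, the mean and the SD (n = 3); light colours are Cre-free and dark colours carry Cre, blue male and orange female. Averaged over sex and Egr1 background, Sema6a, Sema3e, Sema3c, Sema3f, Sema4c and Plxnc1 are higher with Cre and Ntng2, Robo2 and Unc5a lower. Not every pair of groups follows: in unfloxed females the means of Plxnc1 and Sema3c are lower with Cre. The Robo2 means of males without and with Cre lie close together. In each panel some Cre-free libraries overlap the Cre libraries.

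The Cre difference was also taken within each sex, where 5 of 47 members were called in males (2.16% of all genes) and 5 in females (8.85%). In males Sema3a (log2 difference 1.26), Slit1 (1.13), Sema3e (1.11) and Plxnc1 (0.84) were higher with Cre and Ntng2 (-0.86) lower. In females Plxna4 (0.96) and Sema6a (0.68) were higher with Cre, and Robo2 (-0.87), Slit2 (-0.75) and Dcc (-0.54) lower. The largest edgeR adjusted p of these was 0.0483, for Slit1. In females 12 members were called without female wild type replicate 1 (19.2% of all genes): these 5 and Plxnb1 (0.43) and Sema4g (1.0045), higher, and Unc5c (-0.92), Robo1 (-0.68), Sema3a (-0.65), Plxna2 (-0.60) and Sema5a (-0.54), lower. Whether these differ between the sexes is tested by the interaction below. Within unfloxed libraries alone 0 members were called (1.04% of all genes) and 9 had an unadjusted p under 0.05 (19.1%, against 10.7% of all genes). There Dcc (-0.52) alone was called without female wild type replicate 1 (1.77% of all genes). Within floxed libraries alone Ntng2, Sema3c and Sema6a were called (3.15% of all genes).

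Markers of pituitary cell types moved with Cre as well. Of the markers, 4 of 4 for somatotropes and lactotropes fell, with a summed level of 168500 to 414090 CPM without Cre and 44953 to 158660 CPM with Cre. For corticotropes and melanotropes 4 of 5 rose, with sums of 7512 to 48775 CPM without and 30679 to 226870 CPM with Cre. Posterior lobe pituicyte markers rose in 4 of 6, from sums of 81.4 to 283 CPM to sums of 133 to 400 CPM. Thyrotrope markers rose in 2 of 3, with sums of 240 to 591 CPM without and 254 to 1203 CPM with Cre. Endothelial markers were called in 1 of 8, with sums of 125 to 226 and 131 to 240 CPM. In the remaining lists the called markers were 1 of 4 for gonadotropes, 2 of 7 for stem and folliculostellate cells, 2 of 8 for mural cells and fibroblasts, 1 of 9 for leukocytes, 1 of 5 for neurons and Schwann cells and 0 of 3 for red blood cells. Over all the marker lists, the genes with no count in some library were Cldn5 (endothelial), Cd3e (leukocyte) and Sox10 (Schwann cell). Their part in the differences above was not tested.

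The Cre and Egr1cKO comparisons were next made separately, each as 3 libraries against 3 of the same sex. Egr1cKO animals and their controls also differ in Cre, so an Egr1cKO comparison holds any effect of Cre along with that of losing Egr1. Only the contrast beyond the Cre effect, given below, takes the Cre effect off. In male Egr1cKO against Egr1cKO control 0 of 47 members were called (0.041% of all genes). An unadjusted p under 0.05 was found for 6 (12.8%, against 6.57% of all genes), namely Sema3e, Sema3a, Robo3, Ntng2, Sema3c and Plxnc1. In male Cre control against wild type 0 were called (0.233%) and 13 had an unadjusted p under 0.05 (27.7%, against 10.8% of all genes). DESeq2 called 0 and 3 members in these comparisons, and 103 and 264 genes in all. Sema3a had the smallest p in the male Cre comparison, at 12.3, 10.7 and 15.02 CPM in Cre control and 3.58, 6.33 and 3.54 CPM in wild type. These groups do not overlap, and the log2 difference was 1.49 (SE 0.34, edgeR adjusted p = 0.0553).

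Female Egr1cKO pituitaries had less Robo2 and Slit2 RNA than their floxed controls, a receptor and a ligand of the same pathway. These were 2 of 47 members called, against 2.21% of all genes. Robo2 measured 6.98, 10.6 and 14.1 CPM in female Egr1cKO and 15.5, 24.99 and 22.4 CPM in female Egr1cKO control. The libraries do not overlap, and the log2 difference was -0.98 (SE 0.242, edgeR adjusted p = 0.0297). Slit2 measured 40.3, 28.4 and 34.3 CPM in female Egr1cKO and 66.1, 74.8 and 51.2 CPM in its control. These groups do not overlap either, and the log2 difference was -0.90 (SE 0.225, edgeR adjusted p = 0.0333).

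Other measures differed between the same libraries. The mitochondrial share was 8.73% to 10.4% in female Egr1cKO and 3.50% to 6.87% in its control, and Pomc took 8.75% to 18.8% of counts against 1.11% to 3.85%, both without overlap. Corticotrope and melanotrope markers were called higher in 2 of 5, neuron and Schwann cell markers higher in 1 of 5 and somatotrope and lactotrope markers lower in 2 of 4. The part of these measures in the Robo2 and Slit2 differences was not tested. Both genes were also called lower in female Cre control than in wild type in the fit without female wild type replicate 1 given below. In that fit 15.5% of all genes were called, and in the fit of all 24 libraries neither gene was called there. Slit2 had its lowest group mean in female Cre control (33.7 CPM). The cause of either difference was not tested.

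Both calls in female Egr1cKO rest on few libraries. For Slit2 the call was lost without Egr1cKO control replicate 1 or 2 or Egr1cKO replicate 2 or 3 (edgeR adjusted p = 0.0834 to 0.148), and for Robo2 without Egr1cKO control replicate 2 or 3 or Egr1cKO replicate 1 or 2 (edgeR adjusted p = 0.0703 to 0.139). Robo2 was also not called when only the groups compared were fitted (edgeR adjusted p = 0.0979). Plxna4 (log2 difference 1.14, edgeR adjusted p = 0.0548) and Sema6a (0.81, edgeR adjusted p = 0.0619) were higher in female Egr1cKO and just missed the threshold.

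In female Cre control against wild type, Dcc, the netrin receptor that mediates attraction, was the 1 member called (1.21% of all genes, 0.839% lower and 0.369% higher). It measured 25.1, 28.0 and 28.3 CPM in Cre control and 37.7, 58.3 and 72.2 CPM in wild type, with no overlap. The log2 difference was -1.05 (SE 0.206, edgeR adjusted p = 0.0109). The call was lost without wild type replicate 3 or Cre control replicate 1 or 3 (edgeR adjusted p = 0.0608 to 0.101), and when only the groups compared were fitted (0.328). In the same comparison 1 of 4 gonadotrope and 1 of 3 thyrotrope markers were called higher in Cre control, and their part was not tested.

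Leaving out female wild type replicate 1 moved this count more than any other alternative that was run. Without it 11 of 47 members were called, 10 lower and 1 higher with Cre, and 15.5% of all genes. The lower genes were the receptors Dcc (log2 difference -1.27, edgeR adjusted p = 4.65e-05), Unc5c (-1.53), Unc5a (-0.54), Robo1 (-0.85), Robo2 (-0.89) and Plxnb2 (-0.53) and the ligands Ntn1 (-1.24), Sema3a (-1.14), Sema5a (-0.96) and Slit2 (-0.72). Sema4g, a membrane semaphorin, was higher (1.68).

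The Egr1cKO effect beyond the Cre effect is the Egr1cKO minus Egr1cKO control difference less the Cre control minus wild type difference, averaged over both sexes. For this contrast 0 members and 0% of all genes were called with edgeR. At an unadjusted p under 0.05 were 2 members, Dcc (log2 difference 0.52) and Robo3 (-0.83), and 1125 genes in all, and DESeq2 called 0 members and 3 genes. Between floxed and unfloxed libraries without Cre 0 members and 0% of all genes were called with edgeR, with 4 members (Robo2, Dcc, Plxna3 and Sema4d) and 1573 genes at an unadjusted p under 0.05 and 0 genes called by DESeq2. Without female wild type replicate 1 the floxed comparison called 3 members (7.17% of all genes): Plxna3 higher in floxed libraries (log2 difference 0.50) and Dcc (-0.48) and Robo2 (-0.53) lower.

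**Figure D3:**
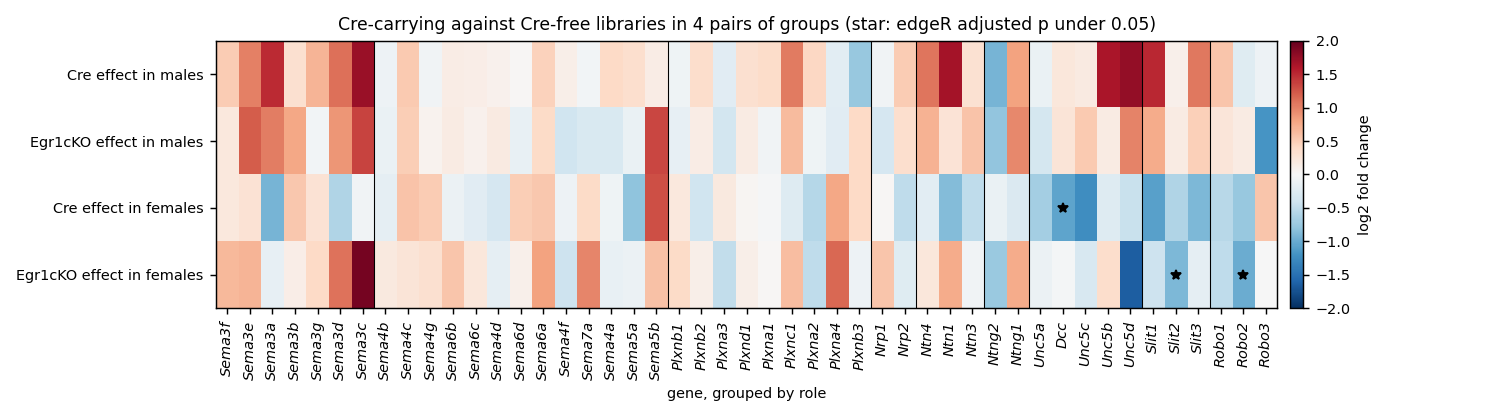
Log2 fold change of each of the 47 genes between Cre-carrying and Cre-free groups, in 4 rows: Cre control against wild type and Egr1cKO against Egr1cKO control, in males and females; the colour scale is limited at -2 and 2 and stars mark an edgeR adjusted p under 0.05. Sema3c and Sema3e are red in the male rows and the female Egr1cKO row, Ntng2 is blue, palest in the female Cre row, and the stars are Dcc, Slit2 and Robo2 in the female rows.

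Females had more Sema3a and Slit1 RNA than males in pituitaries without Cre, 6 libraries against 6. These 2 of 47 members were called, against 1.5% of all genes (0.661% higher in females) and 2% of those at 1 CPM or more. Sema3a, a repellent that binds neuropilin 1, had 8.76, 15.2 and 29.4 CPM (lowest, median, highest) in females and 3.54, 3.93 and 9.46 CPM in males. A single male library, an Egr1cKO control, reached into the female range. The log2 difference was 1.67 (SE 0.24, edgeR adjusted p = 0.000147), and it was called in 12 of 12 fits that leave out a library.

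Sema3a was at its most different in wild type, with 15.9, 23.7 and 29.4 CPM in females and 3.58, 6.33 and 3.54 CPM in males. The groups do not overlap, and the log2 difference there was 2.36 (edgeR adjusted p = 0.00057), where 0.283% of all genes were called. Among Egr1cKO controls, where 0.451% of all genes were called, it was 0.99 (edgeR adjusted p = 0.184), with 11.3, 14.4 and 8.76 CPM in females and 3.57, 9.46 and 4.28 CPM in males. Sema3a therefore passed the test in unfloxed but not in floxed libraries, and that difference between backgrounds was not tested.

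Slit1 had 32.1, 48.1 and 84.9 CPM in females and 11.6, 21.1 and 34.9 CPM in males without Cre. The ranges meet in a narrow overlap, and the log2 difference was 1.22 (SE 0.296, edgeR adjusted p = 0.0388). It was called in 1 of 12 fits that leave out a library, and not without female wild type replicate 1 (1.31, edgeR adjusted p = 0.0555). Next came Slit2 (0.54) and Sema3e (0.95), both with an edgeR adjusted p of 0.0887, and then Sema4c (0.59, 0.102), none of them called. Ntn1 (1.0015, edgeR adjusted p = 0.108) was called in wild type alone, at 11.2, 32.8 and 38.7 CPM in females and 3.89, 5.61 and 7.55 CPM in males (2.27, edgeR adjusted p = 0.0165).

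Without female wild type replicate 1 the comparison called 8 members, all higher in females, against 2.06% of all genes. They were the ligands Sema3a (log2 difference 1.77), Ntn1 (1.19), Sema3e (1.13), Sema4c (0.67) and Slit2 (0.60) and the receptors Plxnc1 (0.76), Robo1 (0.60) and Dcc (0.53). In wild type alone the fit without it also called 8 (4.41% of all genes), all higher in females: Ntn1 (2.64), Sema3a (2.56), Slit1 (2.08), Sema3e (1.67), Ntn4 (1.37), Plxnc1 (1.28), Robo1 (1.0005) and Dcc (0.92).

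Cell type markers differed between the sexes without Cre as well. Pituicyte markers were called higher in females in 2 of 6, with all 6 positive and summed levels of 185 to 283 CPM against 81.4 to 206 CPM in males. Gonadotrope markers were called lower in 1 of 4 (965 to 1962 CPM against 1660 to 4693 CPM), stem and folliculostellate markers lower in 2 of 7 (250 to 337 CPM against 305 to 518 CPM) and an endothelial marker lower. A somatotrope or lactotrope marker and a mural or fibroblast marker were called higher. Their part in the member differences was not tested.

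In pituitaries with Cre, 14 of 47 members (29.8%) were called between females and males, no more than the background. The share was 27.9% of all genes tested and 33.6% of genes at 1 CPM or more. By role these were 5 of 9 plexins (3 higher and 2 lower), 1 of 2 neuropilins, 2 of 5 netrin receptors and 1 of 3 robos. Among the ligands they were 3 of 13 membrane semaphorins, 1 of 2 netrin-G genes, 1 of 3 slits and 0 of 7 secreted semaphorins and 0 of 3 netrins. In females 5 members were higher (all-gene share 12%) and 9 lower (15.9%). The genes higher in females were 3 plexins and 2 membrane semaphorins, and the lower ones included receptors from each receptor group.

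Nrp2, the neuropilin that binds Sema3f, had 5.48, 10.3 and 16.3 CPM (lowest, median, highest) in females with Cre and 18.2, 32.0 and 34.7 CPM in males with Cre. The groups do not overlap, and the log2 difference was -1.42 (SE 0.277, edgeR adjusted p = 0.000884). Plxnd1, the receptor of Sema3e, was also without overlap, at 22.2, 29.0 and 36.6 CPM in females and 37.6, 41.9 and 54.1 CPM in males (log2 difference -0.60, SE 0.163, edgeR adjusted p = 0.00813). Plxnb2 overlapped, at 166, 181 and 260 CPM in females and 216, 255 and 287 CPM in males (log2 difference -0.39, edgeR adjusted p = 0.0193).

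The netrin receptors Unc5c and Unc5d, which mediate repulsion, were lower in females with Cre. Unc5d had 0, 1.36 and 2.99 CPM in females and 3.68, 5.73 and 8.58 CPM in males, with no overlap (log2 difference -2.04, SE 0.49, edgeR adjusted p = 0.00369). The library with no count, female Egr1cKO replicate 2, could hold up to 0.168 CPM, the level of 3 counts there, which covers counting error only. Unc5c had 7.32, 7.99 and 14.2 CPM in females and 9.14, 19.0 and 29.3 CPM in males, with overlap (log2 difference -1.08, SE 0.253, edgeR adjusted p = 0.00312).

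Robo2 and its ligand Slit3 were lower in females with Cre as well. Robo2 had 6.98, 15.2 and 22.4 CPM in females and 18.6, 24.4 and 29.0 CPM in males, overlapping in the Cre controls (log2 difference -0.77, SE 0.169, edgeR adjusted p = 0.00212). Slit3 had 1.13, 4.03 and 4.48 CPM in females and 4.72, 8.41 and 13.4 CPM in males, with no overlap (log2 difference -1.29, SE 0.34, edgeR adjusted p = 0.00682). Among the other ligands, Sema5a had a log2 difference of -0.73 (edgeR adjusted p = 0.00752) and Ntng1 of -0.96 (edgeR adjusted p = 0.0348), which was not called with no low-count filter (edgeR adjusted p = 0.0529).

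Plxna4, a class A plexin that pairs with neuropilin 1, had the largest rise in females with Cre among the called members. It had 9.54, 23.9 and 31.9 CPM in females and 8.41, 11.2 and 12.3 CPM in males. A single female library, Egr1cKO replicate 1, lay within the male range, and the log2 difference was 1.10 (SE 0.225, edgeR adjusted p = 0.00123). The others higher in females were Sema6a (log2 difference 0.54, edgeR adjusted p = 0.0161), Plxna3 (0.50, edgeR adjusted p = 0.0176), Plxnb1 (0.49, edgeR adjusted p = 0.0238) and Sema4c (0.51, edgeR adjusted p = 0.0352). Of the 14 called genes, Nrp2, Plxnd1, Unc5d and Slit3 had no overlap between the sexes. The share of all genes without overlap was not counted, so this is not shown to be particular to the members.

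Of these 14, Nrp2, Plxna4, Plxnd1, Robo2, Sema5a, Slit3, Unc5c and Unc5d were called in 12 of 12 fits that leave out a library. Sema6a was lost without female Cre control replicate 1 (edgeR adjusted p = 0.0667), and Plxnb2 without male Egr1cKO replicate 1 (0.0641) or female Egr1cKO replicate 2 (0.0615). Plxna3 was called in 9, Plxnb1 in 7, Ntng1 in 5 and Sema4c in 3 of the 12 fits, with edgeR adjusted p values up to 0.0617, 0.0733, 0.0948 and 0.098. Plxna4 was called in Cre control alone (log2 difference 1.16, edgeR adjusted p = 0.041, all-gene share 3.61%) and in Egr1cKO alone (1.03, edgeR adjusted p = 0.0343, all-gene share 13.1%). Robo2 was called in Egr1cKO alone (-1.25, edgeR adjusted p = 0.00263) and not in Cre control (-0.28, edgeR adjusted p = 0.516).

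Other measures differed between the sexes with Cre too. The mitochondrial share and the number of genes with a count did not overlap between the sexes, except that the top female gene count reached the lowest male one. Gonadotrope markers were lower in females in 3 of 4 (summed level 1099 to 3291 CPM against 2993 to 6843 CPM in males), thyrotrope markers in 3 of 3, and pituicyte markers were higher in 3 of 6 (261 to 400 CPM against 133 to 267 CPM). Endothelial markers were higher in females in 1 of 8 and lower in 2 of 8 (131 to 169 CPM against 137 to 240 CPM). Markers were also called higher in 2 of 5 for corticotropes and melanotropes and 2 of 5 for neurons and Schwann cells. The same held for 2 of 9 for leukocytes and 1 of 8 for mural cells and fibroblasts. Called lower were 2 of 7 stem and folliculostellate and 1 of 3 red blood cell markers. Of 4 somatotrope and lactotrope markers, 1 was called higher and 1 lower. In this comparison 27.9% of all genes were called (12% higher and 15.9% lower in females), so a marker count near these shares does not single out a cell type. Genomic length also went with the direction: the 9 members lower in females have a median span of 370 kb, the 5 higher ones 24.5 kb and the other 33 a span of 69.0 kb. Among protein-coding genes of at least 1 CPM, 30.1% of the 2185 longer than 100 kb were lower in females and 8.24% higher, against 11.9% and 20.7% of the 3236 under 10 kb. The part of these measures in the member differences was not tested.

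**Figure D4:**
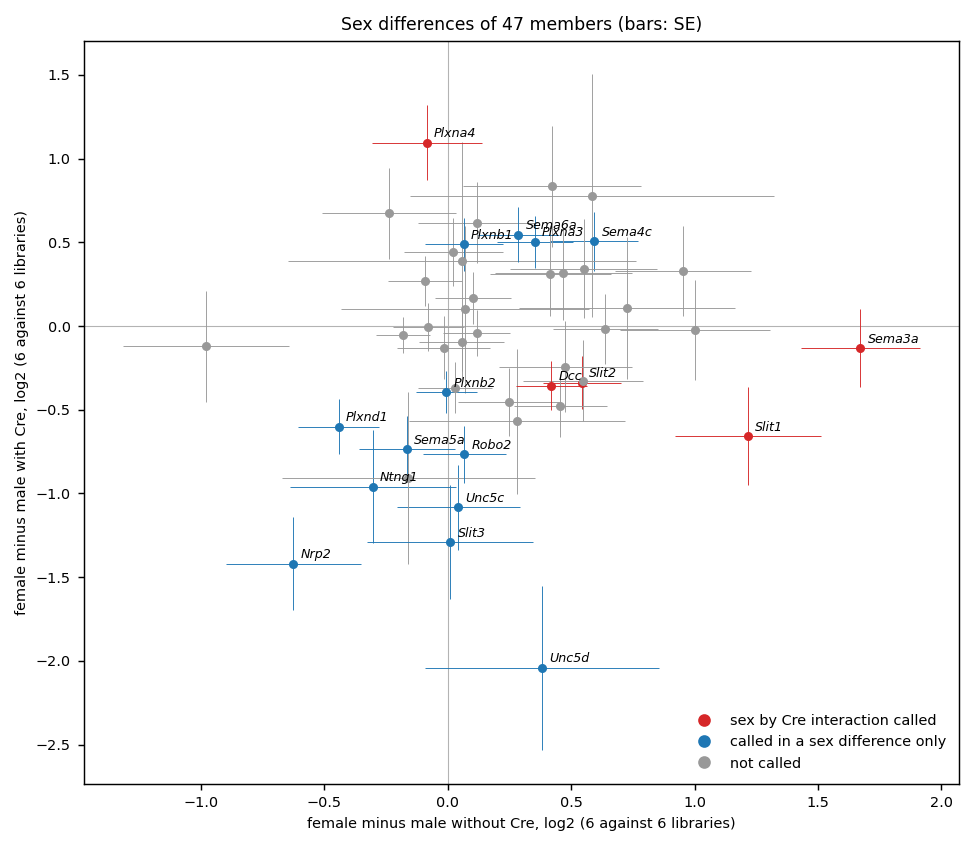
Female minus male log2 difference of the 47 genes without Cre (horizontal axis) and with Cre (vertical axis), each from 6 against 6 libraries, with SE bars; red marks genes whose sex difference changed with Cre, blue those called in a sex difference only and grey the rest. Sema3a and Slit1 lie far to the right, near and below the zero line of the vertical axis, and Plxna4 lies at the top near zero on the horizontal axis.

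The sex difference of 5 genes changed with Cre: Sema3a, Slit1, Slit2 and Dcc moved toward lower values in females and Plxna4 toward higher ones. The interaction is the female minus male difference with Cre less that without Cre, over all 24 libraries. For it 5 of 47 members were called (10.6%), against 2.06% of all genes and 2.57% of those at 1 CPM or more. Among the 5 called, 4 were negative (all-gene share 1.31%) and 1 positive (0.748%). The median interaction was -0.21 over the members and -0.08 over all genes tested. The 3 slits, the 3 netrins and the 5 netrin receptors all had negative values, of which 2 slits and 1 receptor were called. Positive values were found in 34% of the members and 45.1% of all genes tested.

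Sema3a had the smallest p of the 5, with an interaction of -1.80 (SE 0.333, edgeR adjusted p = 0.0131). With Cre it measured 8.82, 11.01 and 14.8 CPM in females and 10.6, 11.9 and 15.02 CPM in males, so the sexes overlap almost fully, unlike the Cre-free libraries above. Male Cre control and male Egr1cKO libraries all exceeded every male Cre-free library. The interaction was called in 24 of 24 fits that leave out a library and in unfloxed libraries alone (-2.42, edgeR adjusted p = 0.0299, all-gene share 0.128%), but not in floxed ones (-1.18, edgeR adjusted p = 0.538, all-gene share 0.0228%). The unfloxed value without female wild type replicate 1 was -2.63 (edgeR adjusted p = 0.000224), 1 of 13 members then called there (18.7% of all genes).

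Slit1 followed the same order, with 10.9, 28.2 and 55.6 CPM in females with Cre and 35.4, 50.1 and 60.7 CPM in males with Cre. Females were higher without Cre and lower in median with Cre, an interaction of -1.88 (SE 0.416, edgeR adjusted p = 0.0309). Slit2, a robo ligand like Slit1, had 42.8, 56.7 and 74.8 CPM in females and 30.4, 39.2 and 50.6 CPM in males without Cre. With Cre it had 28.4, 33.9 and 40.3 CPM in females and 29.9, 45.3 and 54.6 CPM in males, an interaction of -0.88 (SE 0.223, edgeR adjusted p = 0.0425). The female libraries with Cre all lay below the female ones without Cre, and the male ranges overlap.

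Dcc had 31.5, 38.7 and 72.2 CPM in females and 29.3, 31.0 and 44.0 CPM in males without Cre, and 25.1, 29.2 and 37.9 CPM in females and 35.4, 37.9 and 46.98 CPM in males with Cre. The interaction was -0.78 (SE 0.204, edgeR adjusted p = 0.0454). Plxna4 was alike in both sexes without Cre, at 8.68, 10.6 and 18.2 CPM in females and 10.5, 12.3 and 15.5 CPM in males. Of its 6 female libraries with Cre, 5 exceeded every other library, and the interaction was 1.18 (SE 0.317, edgeR adjusted p = 0.0494).

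Of the cell type markers, 1 of 4 for somatotropes and lactotropes had a positive interaction that was called and 1 of 3 for thyrotropes a negative one. Their part was not tested.

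Apart from Sema3a, these calls were close to the threshold. Leaving out a library kept the call in 11 of 24 fits for Slit1, 6 for Slit2, 5 for Dcc and 3 for Plxna4, with edgeR adjusted p values up to 0.0797, 0.105, 0.108 and 0.097. Without female wild type replicate 1 all 5 were called, at -1.91 for Sema3a, -1.97 for Slit1, -0.94 for Slit2, -0.89 for Dcc and 1.05 for Plxna4, with edgeR adjusted p values from 0.000142 to 0.0108. In that fit 15 members were called, against 19.6% of all genes, and the added ones were Robo1 (-1.08), Robo2 (-0.90), Unc5c (-1.27), Unc5d (-2.38), Slit3 (-1.45), Ntn1 (-1.22), Ntn4 (-1.04), Plxnc1 (-0.78) and Plxnb2 (-0.46), all negative, and Plxnb1 (0.56). The 5 called genes of the full fit all span over 100 kb. The median interaction of genes that long was -0.31 over 2185 protein-coding genes of at least 1 CPM and -0.75 over the 25 members among them.

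**Figure D5:**
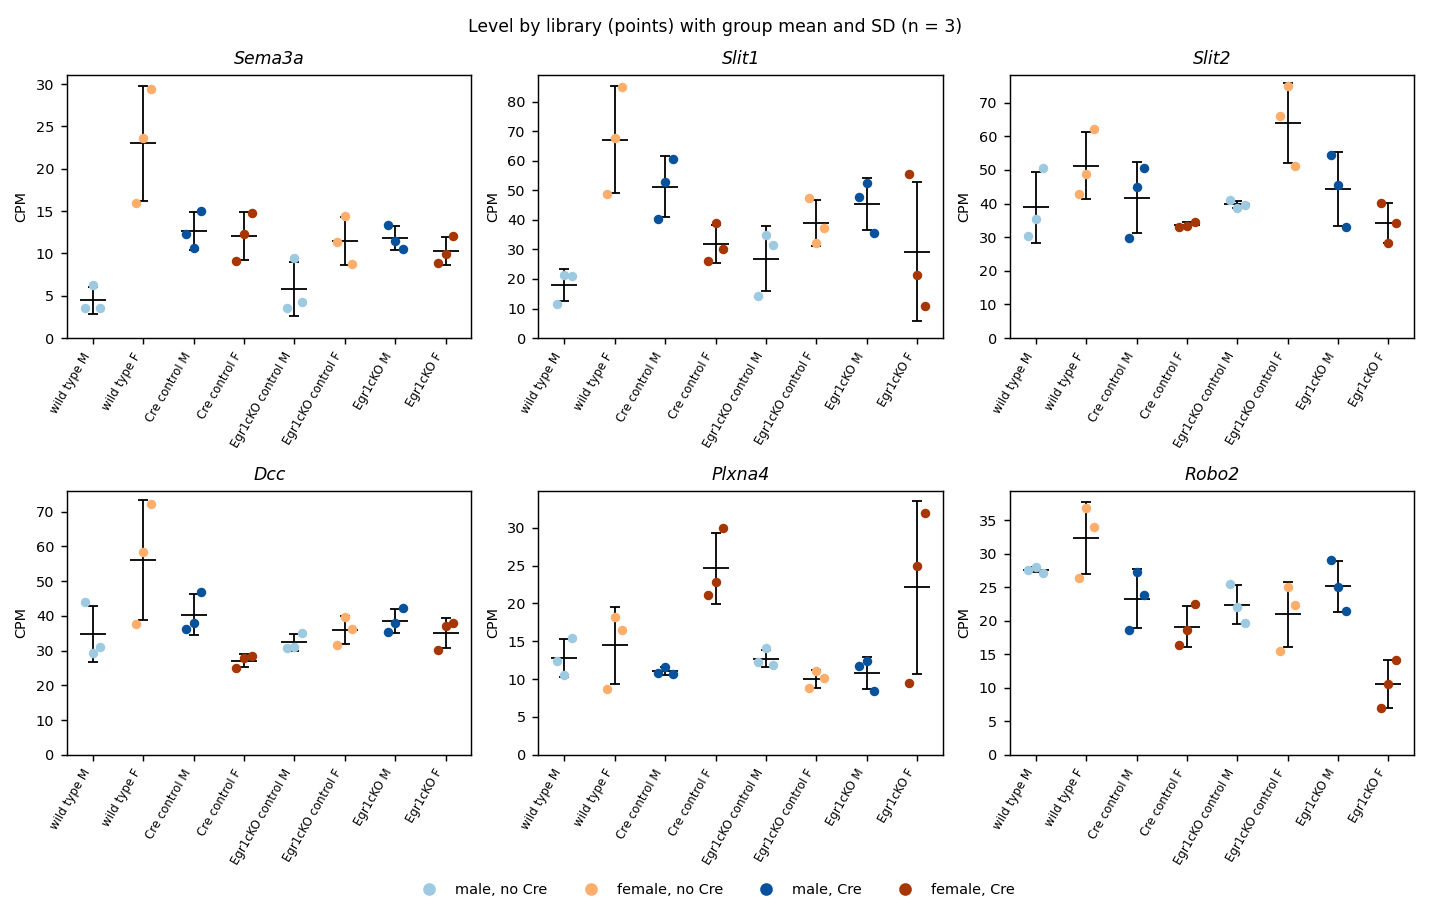
Level in CPM of the 5 genes whose sex difference changed with Cre and of Robo2, by group, with a point per library, the mean and the SD (n = 3); colours as in the legend. Sema3a is low in Cre-free males and highest in wild type females, Plxna4 is high in females with Cre except for 1 library at 9.54 CPM, and Robo2 is lowest in female Egr1cKO.

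Signalling partners of these families are a list of 58 genes that were all tested. With Cre 3 rose (5.17% against 2.8% of all genes) and 4 fell (6.9% against 4.08%), including Mical2, an actin-oxidizing enzyme of a family that acts below plexins (log2 difference 0.64, edgeR adjusted p = 0.000104), Ptk2, the focal adhesion kinase (-0.49, edgeR adjusted p = 0.000585), Vegfa, a neuropilin 1 ligand (0.53, edgeR adjusted p = 0.00172), and Enah, an actin regulator that binds robos (-0.41, edgeR adjusted p = 0.0035). Mical2 means without and with Cre were 32.1 ± 4.51 and 50.1 ± 10.01 CPM in unfloxed males, 37.5 ± 5.84 and 53.7 ± 6.93 in unfloxed females, 33.4 ± 6.86 and 52.4 ± 4.52 in floxed males and 33.2 ± 3.58 and 55.3 ± 6.92 in floxed females (SD, n = 3). In female Egr1cKO 3 of the 58 were called (5.17% against 2.21% of all genes): Ptk2 (-0.97), Rgmb (0.83) and Mical2 (0.74). In female Cre control Vegfa alone was called (1.72% against 1.21% of all genes), at 129, 134 and 138 CPM against 65.4, 43.1 and 45.5 CPM in wild type, with no overlap (1.38, SE 0.212, edgeR adjusted p = 0.00154). In the male comparisons and beyond the Cre effect 0 were called. The Cre difference called 12 partners (8.12% of all genes) without female wild type replicate 1 and the Cre effect in females 18 (15.5% of all genes), with Vegfa at 0.59 and 1.59.

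Between the sexes without Cre 3 partners were called (5.17% against 1.5% of all genes), Enah lower (-0.53) and Lrrc4c, a netrin-G ligand (1.20), and Ptk2 (0.46) higher in females. With Cre 23 were called, 39.7% against 27.9% of all genes and 33.6% of those at 1 CPM or more, 6 higher and 17 lower in females. Vegfc, a ligand of neuropilin 2, was 6.18 ± 1.09 CPM in female and 14.7 ± 0.196 CPM in male Cre controls, and 5.64 ± 3.06 and 18.1 ± 1.37 CPM in Egr1cKO (SD, n = 3). Its log2 difference was -1.47 (SE 0.222, edgeR adjusted p = 7.17e-05). Kdr, a VEGF receptor, had a difference of -1.17 (edgeR adjusted p = 0.000655) and Neo1, a netrin and Rgm receptor, of -0.84 (edgeR adjusted p = 0.000932). The interaction called 3 partners (5.17% against 2.06% of all genes): Lrrc4c (-1.71), Neo1 (-1.09) and Vegfa (0.86). With female wild type replicate 1 left out, the sex difference without Cre called 4 partners (2.06% of all genes) and the interaction 19 (19.6% of all genes), these 3 among them.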

How the data were processed

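Counts per Ensembl gene were deposited by the authors as raw whole numbers with no normalization, for 24 libraries. The submitters' processing notes list Trim Galore 3.8.2, FastQC, STAR 2.7.9 and the GRCm38 build. The counting tool and annotation release were not given in the sources used here. Per the labels' protocols, libraries were polyA-selected and not stranded. Of 35191 genes, 35077 matched a GENCODE M21 symbol and 114 did not.

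The tests used edgeR 4.0.16 under R 4.3.3: filterByExpr kept 21927 genes, libraries were TMM-scaled, and 1 model with 8 group means (16 residual degrees of freedom, prior count 0.125) was tested by robust quasi-likelihood in 10 comparisons. Adjusted p is Benjamini-Hochberg over all genes tested, with a threshold of 0.05. The comparisons share libraries, so their values are not independent. DESeq2 1.42.0 was an alternative. Levels are CPM on TMM-scaled totals, and RPKM divides by union exon length. No library duplicated another of its group: over 24 pairs, chi-square divided by its degrees of freedom was at least 16.3. The method was tested on simulated data for the female Egr1cKO comparison. Of 50 genes each changed by log2 -2, -1, 1 and 2, it called 41, 2, 5 and 43. The simulation gave every gene the same spread, and at that spread log2 changes of 1 were mostly missed with 3 libraries a group. Spread differs among the measured genes, and Dcc, Robo2 and Slit2 were called at differences near -1, so this miss rate need not hold for each member.

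Members and lists were chosen with earlier results of these data known. Every member is named with its level; those called in any comparison, and the 5 with the smallest p in the Cre difference and in the sex differences, are given in full, and at most 4 called partners per comparison are named. Other names were added after their values were seen. Alternatives were other size factors, other low-count filters, DESeq2, fitting only the groups compared and leaving out each library. The differences within unfloxed or floxed libraries, the Cre difference within each sex, and the fits of these and of the partners without female wild type replicate 1, were added after seeing the data.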

Additional observations from a re-analysis of the deposited data

Results flagged for a closer look

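The female minus male difference changed between libraries without and with Cre in 5 members, by the interaction term of the edgeR model, on the log2 scale. Sema3a had a value of -1.80, Slit1 of -1.88, Slit2 of -0.88 and Dcc of -0.78, a shift of the sex difference toward lower female levels with Cre. Plxna4 had a value of 1.18, a shift toward higher female levels with Cre.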

How the results depend on the processing

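No paired analysis was possible because the numbers in the library titles are unique to each library and replicate numbers were given in accession order. Counts below are of members called, with all genes in brackets. The Cre difference (9 members; 1510) gave 0 in unfloxed (229) and 3 in floxed libraries (691), and 6 to 10 without a library. The Egr1cKO effect in males (0; 9) gave 1 with no low-count filter (339), and 0 to 0 without a library. The Egr1cKO effect in females (2; 484) gave 4 with a minimum mean of 1 CPM (575), 6 with DESeq2 (1453) and 1 with only the groups compared (470), and 0 to 4 without a library. The Cre effect in males (0; 51) gave 6 with no filter (704), 3 with DESeq2 (264) and 1 with only the groups compared (112), and 0 to 0 without a library. The Cre effect in females (1; 265) gave 4 with no filter (1149), 4 with DESeq2 (1011) and 0 with only the groups compared (2), and 0 to 11 without a library. The sex difference without Cre (2; 329) gave 7 with no filter (763), 6 with DESeq2 (662) and 0 in floxed libraries (99), and 1 to 8 without a library. The sex difference with Cre (14; 6113) gave 2 in unfloxed (791) and 8 in floxed libraries (2863), and 9 to 16 without a library. The interaction (5; 451) gave 10 with no filter (2081), 9 with DESeq2 (1373), 1 in unfloxed (28) and 0 in floxed libraries (5), and 1 to 15 without a library. Over all genes, the Egr1cKO effect gave 103 with DESeq2 and 192 with only the groups compared in males and 1142 with no filter in females, and the sex difference without Cre gave 164 with only the groups compared. The effect beyond Cre (0; 0) rose to 59 genes with no filter and 3 with DESeq2, with 0 to 0 members without a library. The floxed comparison (0; 0) rose to 63 genes with no filter and gave 0 to 3 members without a library. The highest counts in the Cre effect in females, the sex difference without Cre, the interaction and the floxed comparison came without female wild type replicate 1. The values within unfloxed or floxed libraries are differences in the 24-library model that use fewer samples, and were added after seeing the data; the cause of the other changes was not tested. Members called in a comparison, and the 5 with the smallest p in the Cre and sex differences, kept their direction there in all of these alternatives; partners and other values were not run under all of them. With 3 libraries a group, real changes can go uncalled, so an uncalled member is not shown to be equal.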
